A study of Homo sapiens with 14 samples.

Results

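H19 and 8 other imprinted genes, IGF2, PEG10, MEST, MEG3, PEG3, DLK1, GRB10 and SNRPN, were followed in SW620 colorectal cancer cells given an empty FLAG vector (named SW620-FLAG) or a vector for the TET2 catalytic domain (named SW620-TET2CD). The 9 members were taken by gene symbol, and all 9 were found, out of 36601 genes in the single-cell tables and 60624 in the bulk tables. The set was chosen by name with the levels of H19 in the SW620-FLAG and SW620-TET2CD libraries of these data already known, so every difference in level between the lines is given below as a description with no test. SW620 is a line from a lymph node metastasis of a colorectal carcinoma, and SW480 comes from the primary tumour of the same patient.

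The cells grew in long-term culture, in which colonies form and single cells later spread from them. Single-cell RNA-seq covered both lines on days 6, 9, 12 and 15, with 1 library per line and day. Bulk RNA-seq covered SW480 and SW620 on day 6 and, on day 15, cells inside and outside colonies of each line, again with 1 library each. Cells that passed a strainer after mild digestion counted as outside and the retained spheres as inside. The labels call the control line SW620 and do not say whether the lines are clones, and nothing states that the libraries came from separate cultures, so p-values below measure only the spread between libraries. Kept cells, those with 200 to 4500 genes, 1000 to 20000 UMIs (unique molecular identifiers, counted transcripts) and at most 10% mitochondrial UMIs, numbered 3894 to 8154 per library with 48186195 to 74185723 UMIs, from 5790 to 10713 barcodes. Any pair of libraries shared 1 to 23 kept barcodes. Single-cell levels are CPM, the UMIs of a gene summed over the kept cells, divided by all their UMIs and multiplied by 1000000, and intervals of them are exact 95% Poisson intervals that cover counting error only.

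The culture was epithelial by its markers: the 8 colorectal epithelial genes summed to 10070 to 12240 CPM in SW620-FLAG and 8098 to 11190 CPM in SW620-TET2CD, although KRT20 stayed at or under 0.965 CPM and CDX1 was at 0 in 5 of 8 libraries. The fibroblast list summed to at most 3.8 CPM and the endothelial list to at most 1.27 CPM. Of the leukocyte genes CD68 reached 36.9 CPM, while PTPRC was at 0 in 5 libraries and CD3E at 0 in 4. TET2, the gene whose catalytic domain was introduced, lay between 2.11 and 3.9 CPM in the SW620-FLAG libraries and between 40.2 and 106.6 CPM in the SW620-TET2CD libraries, where it was highest on day 6. Reads of the transgene and of endogenous TET2 carry the same gene name here and cannot be told apart.

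Imprinted genes are expressed mainly from either the maternal or the paternal copy, and the choice is set by DNA methylation laid down in the germ line. H19, a maternally expressed long non-coding RNA, and IGF2, a paternally expressed growth factor, lie side by side and share enhancers and a control region whose methylation decides which of them is active. TET enzymes oxidise 5-methylcytosine, mostly at CG dinucleotides, as a step of demethylation. Both genes are strongly expressed in the fetus, and their imprinting is often disturbed in tumours, colorectal cancer among them. DNA methylation was not measured in the libraries described here.

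On GRCh38 (GENCODE annotation) H19 lies at chr11:1995166-2004552 and IGF2 at chr11:2129112-2158391, both on the minus strand. MEG3, a maternally expressed long non-coding RNA, lies at chr14:100779410-100861031 on the plus strand, downstream of its paternally expressed neighbour DLK1 at chr14:100725705-100738224. GRB10, PEG10 and MEST are all on chromosome 7. H19 hosts the microRNA pair below, whose level was not measured by either assay; the mature sequences are from RefSeq (GRCh38, chr11:1996800-1996822 and chr11:1996768-1996787, minus strand), with the seed, bases 2 to 8, in capitals, and the seeds differ.
hsa-miR-675-5p: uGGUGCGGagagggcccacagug
hsa-miR-675-3p: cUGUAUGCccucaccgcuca

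The RefSeq promoter windows of H19 and MEG3, the pair of members with the largest ratios between the lines, are shown because a TET enzyme acts at CG dinucleotides, which are in capitals. Each window holds 300 bases around a start that RefSeq lists for the gene (GRCh38.p14, chr11:2001217-2001516 on the minus strand and chr14:100825858-100826157 on the plus strand, the first of 3 overlapping MEG3 windows). Both windows lie inside the GENCODE gene spans given above and not at their outer ends, and which start these cells use was not measured.
H19: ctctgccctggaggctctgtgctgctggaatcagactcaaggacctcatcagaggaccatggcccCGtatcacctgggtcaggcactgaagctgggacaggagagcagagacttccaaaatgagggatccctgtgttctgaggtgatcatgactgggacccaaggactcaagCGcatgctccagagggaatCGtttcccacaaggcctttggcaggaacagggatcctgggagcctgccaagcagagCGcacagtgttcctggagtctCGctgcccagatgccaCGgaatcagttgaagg
MEG3: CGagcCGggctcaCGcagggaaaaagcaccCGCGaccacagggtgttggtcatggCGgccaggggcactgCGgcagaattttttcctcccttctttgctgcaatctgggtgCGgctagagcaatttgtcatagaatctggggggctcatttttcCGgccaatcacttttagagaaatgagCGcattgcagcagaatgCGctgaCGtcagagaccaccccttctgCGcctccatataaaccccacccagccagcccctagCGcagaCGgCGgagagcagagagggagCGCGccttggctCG
The H19 window held 6 CG dinucleotides, and 36.8% of the 35116 windows in the table held as few or fewer. The 3 MEG3 windows held 17 to 19 (19 in the one shown), the 5 MEST windows 13 to 25, the 5 GRB10 windows 3 to 49 and the 4 SNRPN windows 2 to 18, against a median of 14 over all windows. These are counts of letters and say nothing of methylation in these cells.

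H19 was nearly absent from SW620-FLAG and present on every day in SW620-TET2CD. In SW620-FLAG its level was 0.0136 CPM on day 6 (1 UMI), 0.0368 CPM on day 9 (2 UMIs), 0.296 CPM on day 12 (15 UMIs) and 0.208 CPM on day 15 (11 UMIs). In SW620-TET2CD it was 3.68 CPM (95% interval 3.26 to 4.14; 273 UMIs) on day 6, 11.1 CPM (10.3 to 11.9) on day 9, 10.5 CPM (9.63 to 11.5) on day 12 and 30.2 CPM (28.8 to 31.8; 1543 UMIs) on day 15. The lowest SW620-TET2CD library thus lay above the highest SW620-FLAG library. Within the kept cells of SW620-TET2CD the order was day 6, then days 12 and 9, whose intervals overlapped, then day 15. Over every barcode day 12 lay above day 9, at 18.7 against 13.8 CPM. The intervals treat each UMI as independent, but few cells held most H19 UMIs on days 9, 12 and 15, so these intervals and those of the ratios are too narrow. With 1 library per day the order describes these libraries only.

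As a ratio of CPM, H19 in SW620-TET2CD was 271.6 times its SW620-FLAG level on day 6 (exact 95% interval 48.3 to 10770, resting on 1 SW620-FLAG UMI), 301.9 times on day 9 (83.3 to 2497), 35.6 times on day 12 (21.4 to 64.1) and 145.3 times on day 15 (81.0 to 291.8). On the scale of log2(CPM + 1) the difference averaged 3.40 ± 1.03 (SD over 4 days). As a description, edgeR's fit over the 8 libraries put it at 6.49, a scale less compressed for low values. The median over the 17478 genes fitted was -0.01. The kept cells held 507 of the 1926 H19 UMIs of SW620-TET2CD on day 12. Over every barcode of SW620-TET2CD, H19 stood at 4.17, 13.8, 18.7 and 47.7 CPM in day order.

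**Figure D1:**
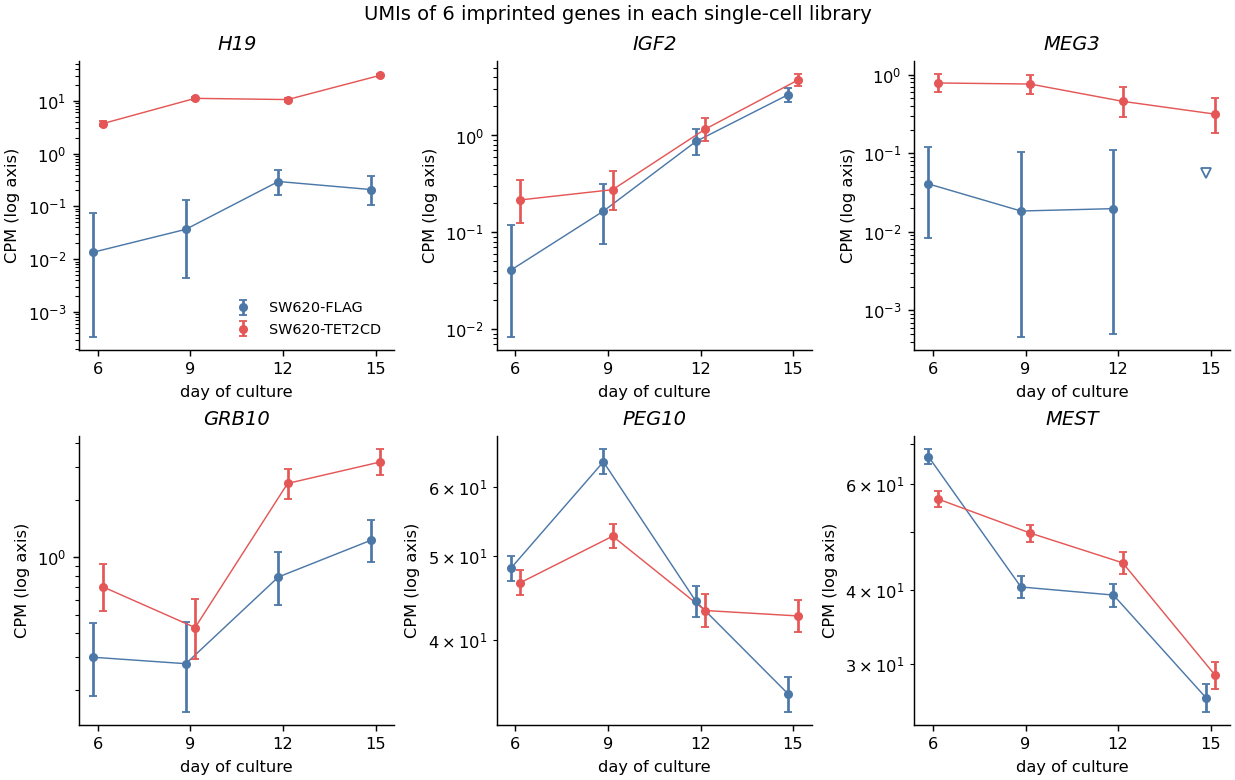
CPM of 6 imprinted genes (log axis, a different range in each panel) by day of culture in SW620-FLAG (blue) and SW620-TET2CD (red), 1 library per point, with exact 95% Poisson intervals; the open triangle marks the limit that a count of 0 allows (3 UMIs). H19 and MEG3 lie higher in SW620-TET2CD on every day, IGF2 and GRB10 are higher on days 12 and 15 than on days 6 and 9 in both lines, and PEG10 and MEST stay between 26.4 and 66.8 CPM.

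H19 was held by few of the kept cells. In SW620-TET2CD the kept cells had 507 of 1926 H19 UMIs on day 12 and 1543 of 3729 on day 15. The shares below therefore describe the kept cells only. In SW620-FLAG, 0.018% of cells on day 6, 0.0266% on day 9, 0.382% on day 12 and 0.159% on day 15 had an H19 UMI, and no cell had more than 1. In SW620-TET2CD the share was 1.28% on day 6 (exact 95% binomial interval 1.04 to 1.54), 2.76% on day 9 (interval 2.38 to 3.19), 3.18% on day 12 (interval 2.66 to 3.79) and 4.08% on day 15 (interval 3.59 to 4.61). Median depth was 6640 to 13479 UMIs per cell in SW620-FLAG and 8310.5 to 12379 in SW620-TET2CD. When every cell was thinned to 2000 UMIs, which left out 18 to 89 shallower cells per library, the shares became 0.0% to 0.0268% in SW620-FLAG and 0.48%, 1.19%, 1.26% and 2.11% in SW620-TET2CD. The SW620-FLAG shares are the control line measured in the same way; with so little H19 RNA they do not measure the free H19 RNA of a SW620-TET2CD library, and its part in the cells with a single H19 UMI, 60 of 104 on day 6 and 113 of 240 on day 15, was not tested.

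Single SW620-TET2CD cells reached 23 H19 UMIs on day 6, 62 on day 9, 44 on day 12 and 154 on day 15. Cells with 5 or more H19 UMIs, a limit chosen after seeing the data, numbered 13 of 8154 on day 6, 42 of 6447 on day 9, 29 of 3894 on day 12 and 73 of 5888 on day 15. They were 0.159% to 1.24% of cells and held 46.9%, 72.3%, 70.2% and 82.5% of the kept cells' H19 UMIs on those days. On days 9, 12 and 15 most H19 UMIs of the kept cells thus came from at most 1.24% of them. Thinning to 5000 UMIs kept 7637, 6199, 3811 and 5151 SW620-TET2CD cells in day order and left out the shallower ones. In these cells the Fano factor of H19, its variance over its mean, which is 1 for random sampling alone, was 4.54 on day 6, 6.7 on day 9, 8.12 on day 12 and 12.8 on day 15. It was 2.85, 1.38, 5.53 and 1.89 for MEG3 and 1.01 to 1.06 for MEST, a member with a much higher mean. For a gene held by few cells the factor also depends on the mean. The mean was 0.018 to 0.137 UMIs per cell for H19 and 0.0017 to 0.0039 for MEG3, so the factors are not compared between genes or days. On day 12, 1 cell held 10 of the 22 MEG3 UMIs of the kept cells.

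Of the cells that held H19, 81.7% on day 6, 77.5% on day 9, 63.7% on day 12 and 52.9% on day 15 also had a TET2 UMI. On day 6, H19 stood at 0.539 CPM in the 5880 SW620-TET2CD cells without a TET2 UMI, 2.83 CPM in the 1222 cells with 1 to 2 and 19.5 CPM in the 1052 cells with 3 or more. The same classes gave 1.55, 16.6 and 72.2 CPM on day 9, 3.13, 25.6 and 61.4 CPM on day 12, and 9.81, 76.5 and 211.2 CPM on day 15. The level was higher in each next class in all 4 libraries. The log2 ratio (CPM + 1) of the highest over the lowest class averaged 4.20 ± 0.49 (SD over 4 libraries). Cells without a TET2 UMI were also shallower, with a median of 8042 UMIs against 11132 in the highest class on day 15, so the comparison was repeated at equal depth.

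After thinning to 5000 UMIs the cells were classed anew by the TET2 UMIs that remained. This left 515 cells in the highest class on day 6, against 1052 before. The share of cells with an H19 UMI in the 3 classes was then 0.353%, 2.12% and 5.63% on day 6, 0.697%, 6.33% and 15.7% on day 9, 1.05%, 10.03% and 11.1% on day 12, and 2.13%, 10.6% and 20.5% on day 15. The intervals of the upper classes overlapped on days 12 and 15, where 72 and 88 cells remained in the highest class, and on day 12 the H19 level was 36.1 CPM against 58.1 CPM in the middle class. Read the other way, TET2 was found in 12 of 13 cells with 5 or more H19 UMIs on day 6, in 95.2% on day 9, in 89.7% on day 12 and in 69.9% (58.0 to 80.1) on day 15, against 27.9%, 24.1%, 19.6% and 17.2% of all cells of those libraries. The cells with 5 or more H19 UMIs were also deeper, with a median of 11340 UMIs on day 15 against 8310.5 over all cells. Cells without a TET2 UMI held 10.3% of the H19 UMIs on day 6 and 26.1% on day 15, and in that class H19 was still above its SW620-FLAG level on each day. A cell without a TET2 UMI may still contain the transcript, since most transcripts of a cell are not sampled.

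**Figure D2:**
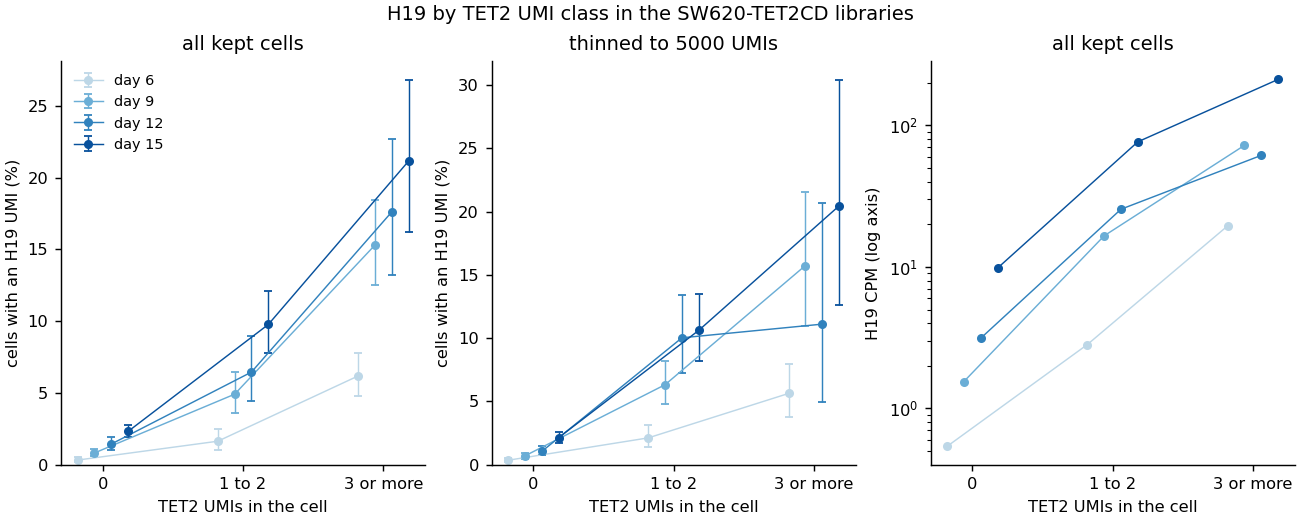
Share of cells with an H19 UMI (left, kept cells; middle, cells thinned to 5000 UMIs; exact 95% binomial intervals) and H19 CPM (right, log axis) against the number of TET2 UMIs in the cell, for the 4 SW620-TET2CD libraries. In kept cells the share goes from at most 2.32% without a TET2 UMI to 6.18% on day 6 and 21.1% on day 15 with 3 or more. In the middle panel the TET2 UMIs are those left after thinning.

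IGF2 shared cells with H19. Over the 4 SW620-TET2CD libraries, 0.704% (0.601 to 0.818) of the 23737 cells without an H19 UMI had an IGF2 UMI, compared with 6.13% (4.18 to 8.64) of the 489 cells with 1 to 4 H19 UMIs and 19.1% (13.3 to 26.1) of the 157 cells with 5 or more. Among cells without a TET2 UMI the pooled shares were 0.506%, 6.35% and 28.6% (13.2 to 48.7) at median depths of 9520, 9466 and 10467 UMIs. These rest on days 12 and 15, since no such cell with H19 had an IGF2 UMI on day 6 (0 of 18 and 0 of 1) or day 9 (0 of 38 and 0 of 2), and 22 of the 28 cells with 5 or more H19 UMIs came from day 15. Pooling also mixes days that differ in both genes, and the intervals ignore the library. On day 15 alone, the share with an IGF2 UMI was 1.98% in cells without H19, 9.58% in cells with 1 to 4 H19 UMIs and 24.7% (18 of 73) in cells with 5 or more. IGF2 stood at 2.86, 15.4 and 32.9 CPM in these classes.

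MEG3, the other long non-coding RNA of the set, was not found in the cells with most H19. None of the 157 cells with 5 or more H19 UMIs had a MEG3 UMI, with an exact 95% upper limit of 2.32%. Among SW620-TET2CD cells with 3 or more TET2 UMIs, a MEG3 UMI was found in 22 of the 1905 cells without H19 (1.15%), in 2 of the 173 cells with 1 to 4 H19 UMIs and in 0 of the 82 cells with 5 or more. At these counts the cells with and without H19 could not be told apart in their share of MEG3. The cells with 5 or more H19 UMIs, which held 4 to 23 MEST UMIs per library, had a MEST level of 30.7, 30.1, 28.2 and 28.0 CPM in day order, and the cells with none had 56.8, 50.03, 44.9 and 28.8 CPM. PEG10 was at 53.7, 50.8, 30.7 and 41.4 CPM in the former and at 46.5, 52.9, 43.3 and 42.5 CPM in the latter. At these counts no direction is read for MEST or PEG10.

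**Figure D3:**
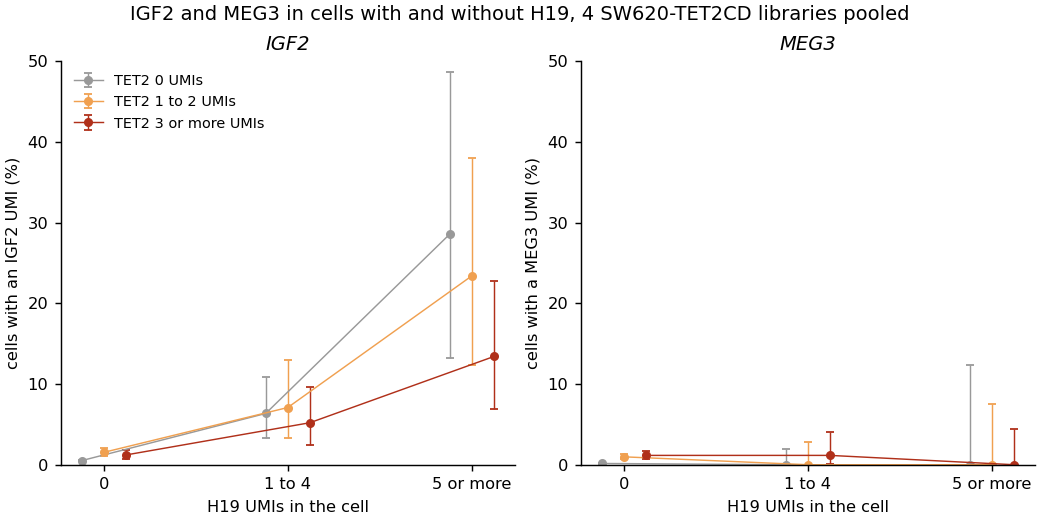
Share of cells with an IGF2 UMI (left) or a MEG3 UMI (right) against the number of H19 UMIs in the cell, by TET2 UMI class, over the 4 SW620-TET2CD libraries pooled, with exact 95% binomial intervals. The IGF2 share reaches 13.4% to 28.6% in cells with 5 or more H19 UMIs, and the MEG3 share is 0 there in every TET2 class. Pooling mixes days, and the intervals ignore the library.

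Across the single-cell libraries IGF2 stayed low and differed between days more than between lines. In SW620-FLAG it was 0.0407 CPM (3 UMIs), 0.165, 0.867 and 2.65 CPM in day order, and in SW620-TET2CD 0.216, 0.276, 1.16 and 3.72 CPM. The SW620-TET2CD library was the higher on each day, with a ratio of 5.31 on day 6 (interval 1.52 to 28.4), 1.67 on day 9 (interval 0.725 to 4.16), 1.34 on day 12 (interval 0.887 to 2.04) and 1.41 on day 15 (interval 1.12 to 1.76). The intervals on days 9 and 12, which cover counting error only, included 1. In bulk RNA on day 15 the lines differed more, with IGF2 6.6-fold higher in SW620-TET2CD inside colonies and 30.5-fold higher outside. Over the TET2 classes IGF2 was at 0.0963, 0.353 and 0.64 CPM on day 6, at 0.111, 0.645 and 0.934 CPM on day 9, at 0.757, 2.77 and 2.67 CPM on day 12 and at 2.47, 7.97 and 11.2 CPM on day 15, and with cells thinned to 5000 UMIs at 2.98, 7.08 and 6.82 CPM on day 15. The cells without a TET2 UMI were the lowest class on each day, and the order of the other classes differed between days and with the depth.

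GRB10, an adaptor protein that restrains signalling from the insulin and IGF1 receptors, was higher in SW620-TET2CD on all 4 days. Its levels were 0.298, 0.276, 0.788 and 1.23 CPM in SW620-FLAG and 0.701, 0.427, 2.45 and 3.18 CPM in SW620-TET2CD, in day order. The ratio was 3.11 (2.15 to 4.57) on day 12 and 2.58 (1.93 to 3.5) on day 15, and the interval on day 9 included 1 (0.812 to 3.09). Over the 3 TET2 classes GRB10 stood at 0.52, 0.618 and 1.65 CPM on day 6, at 0.406, 0.461 and 0.534 CPM on day 9, at 2.46, 2.28 and 2.67 CPM on day 12 and at 3.17, 3.3 and 2.89 CPM on day 15, and since the upper classes rest on 4 to 24 UMIs no order is read from them.

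MEG3 was at the edge of detection in SW620-FLAG, with 3, 1, 1 and 0 UMIs on days 6, 9, 12 and 15. SW620-TET2CD had 0.782 CPM (58 UMIs), 0.758 CPM (55 UMIs), 0.457 CPM (22 UMIs) and 0.314 CPM (16 UMIs) on those days, so the line was higher on each day and its own level was lower on days 12 and 15. The ratio was 19.2 (6.26 to 96.0) on day 6, and on day 15, where SW620-FLAG had no UMI, its lower 95% limit was 4. Between 10 and 36 cells per SW620-TET2CD library held these UMIs, the highest cell held 10, and 24 of 36, 20 of 29, 8 of 10 and 4 of 10 MEG3 cells had a TET2 UMI in day order. Over the 3 TET2 classes MEG3 stood at 0.27, 2.65 and 1.28 CPM on day 6, at 0.258, 1.47 and 3.34 CPM on day 9, at 0.0522, 2.12 and 1.87 CPM on day 12 and at 0.195, 0.412 and 1.81 CPM on day 15. With cells thinned to 5000 UMIs the highest class was above the lowest in 2 of 4 libraries.

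PEG10, a retrotransposon-derived gene active in placenta, and MEST, which encodes a protein of the alpha/beta hydrolase fold, were the members with the most UMIs and differed little between the lines. PEG10 was 48.4, 64.2, 44.4 and 34.7 CPM in SW620-FLAG and 46.6, 52.7, 43.3 and 42.7 CPM in SW620-TET2CD, in day order. MEST was 66.8, 40.4, 39.2 and 26.4 CPM in SW620-FLAG and 56.7, 49.7, 44.4 and 28.8 CPM in SW620-TET2CD. The SW620-TET2CD to SW620-FLAG ratio lay between 0.821 and 1.23 for PEG10 and between 0.849 and 1.23 for MEST and changed sides between days. DLK1, a Notch-like membrane protein, and PEG3, a zinc finger protein, had no UMI in any library, and SNRPN, a spliceosomal protein, had 1 UMI in all, on day 9 in SW620-TET2CD. A count of 0 allows up to 0.0404 to 0.0623 CPM, depending on the library.

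In the bulk libraries levels are TPM, a gene's share of all transcripts after division by transcript length, from 16470176 to 25840563 estimated counts per library. H19 was 0.32 TPM in SW480, 0.55 TPM in SW620 on day 6, and 0.41 TPM inside and 0.48 TPM outside colonies of SW620-FLAG on day 15, resting on 5 to 13 counts. In SW620-TET2CD it was 50.95 TPM inside colonies (1823 counts) and 785.4 TPM outside them (32876 counts). As CPM of estimated counts these were 85.9 and 1272. Both lay above the day 15 single-cell library, at 30.2 CPM in kept cells and 47.7 CPM over every barcode. The cause of this gap was not tested. IGF2 inside and outside colonies was 1.17 and 2.63 TPM in SW620-FLAG, and 7.72 and 80.2 TPM in SW620-TET2CD. Both genes were therefore highest in the cells outside SW620-TET2CD colonies, by 15.4-fold for H19 and 10.4-fold for IGF2 over the cells inside. TET2 itself was 38.1 TPM inside and 124.3 TPM outside those colonies, and 1.15 and 1.29 TPM in SW620-FLAG; its part in the differences of H19 and IGF2 was not tested. In bulk RNA, fewer expressing cells and less RNA per cell cannot be told apart.

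The bulk order of the other members followed the line for GRB10 and MEG3 and neither line nor location for MEST. GRB10 was 8.77 and 9.07 TPM inside and outside in SW620-FLAG against 22.7 and 22.4 TPM in SW620-TET2CD. MEG3 was 0.03 and 0 TPM in SW620-FLAG and 0.2 and 0.32 TPM in SW620-TET2CD, from at most 16.1 counts. MEST stayed between 60.3 and 65.2 TPM in the 4 day 15 libraries, and PEG10 was 35.7 and 42.2 TPM in SW620-FLAG and 24.8 and 32.8 TPM in SW620-TET2CD. DLK1 reached at most 0.05 TPM, and PEG3 and SNRPN were listed at 0 in all 6 libraries. SNRPN shares transcripts with SNURF, and IGF2 with a readthrough gene, so their counts depend on how reads were assigned.

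The day 6 bulk libraries set SW620 beside SW480. The labels give this SW620 the same name as the control line and do not say whether it held the empty vector. PEG10 had no count in SW480 and 40.3 TPM in SW620, at least 1120-fold higher against a floor of 3 counts in SW480. GRB10 went the other way, with 10.1 TPM in SW480 and 1.66 TPM in SW620. IGF2 was alike, 6.49 and 6.85 TPM. That day 6 level of IGF2 in SW620 was above both day 15 SW620-FLAG levels, whereas in the single-cell SW620-FLAG libraries IGF2 was lowest on day 6; the bulk and single-cell tables differ in protocol and in normalization, and only 1 library stands behind each value.

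**Figure D4:**
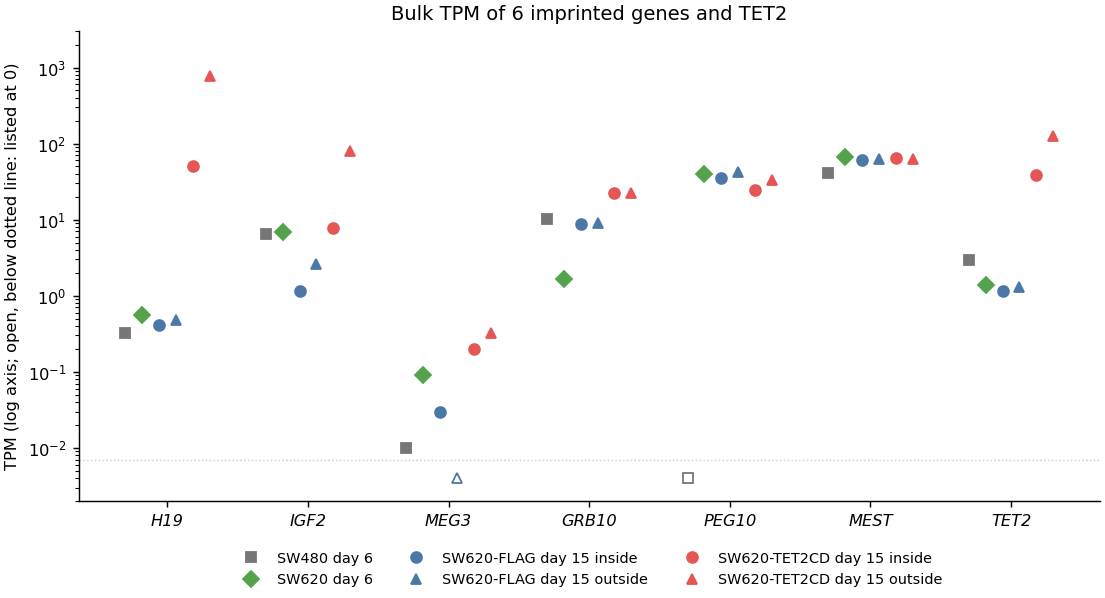
TPM (log axis) of 6 imprinted genes and TET2 in the 6 bulk libraries, 1 symbol per library, with genes listed at 0 drawn open below the dotted line. H19 and IGF2 are highest outside SW620-TET2CD colonies (785.4 and 80.2 TPM), and PEG10 is listed at 0 in SW480.

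Whether cells outside colonies differed from cells inside was tested over the 4 day 15 libraries with the line as a block (edgeR's quasi-likelihood test, Benjamini-Hochberg adjustment). The fit left 1 residual degree of freedom, so a lack of calls says little about whether the cells differ. No gene of 17722 was called at an adjusted p under 0.05 (0.0% called; 1068 genes had an unadjusted p under 0.05, and DESeq2 called 22 genes). Of the 9 members 5 passed the filter on low counts and none was called: H19 had a log2 fold change, outside over inside, of 3.53 ± 0.56 (SE; adjusted p = 0.772) and IGF2 of 2.29 ± 0.49 (adjusted p = 0.772). The fold change of H19 came from SW620-TET2CD; in SW620-FLAG its ratio was 1.17. Without the filter on low counts 472 of 31544 genes (1.5% called) and 2 of the 7 members tested, H19 and IGF2, were called. Leaving out the SW620-TET2CD outside library turned the signs of H19 and IGF2. That fit also dropped the line block, so it mixes line with location and no direction is read from it. Within SW620-FLAG IGF2 was 2.25-fold higher outside. The H19 ratio of 1.17 there rests on 13 counts outside and 12 inside, so no direction is read from it.

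A test that did not use the line contrast asked whether members differed between early (days 6 and 9) and late (days 12 and 15) single-cell libraries, with the line as a block. IGF2 and GRB10 rose and PEG10 and MEST fell. IGF2 had the largest log2 fold change, late over early, 3.53 ± 0.54 (SE; adjusted p = 3.48e-04, edgeR), and its 4 late libraries all lay above its 4 early ones. GRB10 rose by 1.97 ± 0.27 (adjusted p = 1.77e-04), with late above early in each line. PEG10 fell by 0.47 ± 0.12 (adjusted p = 0.00758) and MEST fell by 0.74 ± 0.20 (adjusted p = 0.0087), each with late below early in each line. Bulk SW620 on day 6 and SW620-FLAG inside and outside colonies on day 15 did not show these falls clearly. MEST was 65.8, 60.3 and 63.4 TPM there and PEG10 40.3, 35.7 and 42.2 TPM. In the same libraries GRB10 was higher on day 15 (1.66, 8.77 and 9.07 TPM) and IGF2 lower (6.85, 1.17 and 2.63 TPM).

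H19 rose by 1.52 ± 0.48 (adjusted p = 0.0192) and MEG3 fell by 1.20 ± 0.38 (adjusted p = 0.0204), but both genes passed the filter through their SW620-TET2CD libraries, the levels of H19 were known when it was chosen, and neither call is independent evidence. In the kept cells of SW620-TET2CD the H19 levels of day 9 (early) and day 12 (late) overlapped. Over every barcode they were 13.8 and 18.7 CPM. The H19 call was lost without the SW620-TET2CD library of day 6 (adjusted p = 0.0777) or of day 15 (adjusted p = 0.163) and without the line block (adjusted p = 0.473). The MEG3 call was lost without the SW620-TET2CD library of day 6 (adjusted p = 0.0725), day 9 (0.0554) or day 15 (0.101), with DESeq2 (0.0513), without the line block (0.372), without the upper limits on cells (0.166) and when every barcode was counted (0.376).

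PEG3, DLK1 and SNRPN did not pass the filter on low counts. Over all 16993 genes tested, 57.7% were called (29.4% higher and 28.3% lower late), so most genes moved with the days and the members are not set apart by the call alone. The median log2 fold change over all genes was 0.04. Upper-quartile scaling shifted the median of all genes by 0.17, to 0.21, and the split of called genes from 5001 higher and 4807 lower to 6413 and 3708. All 6 members kept their sign under it and PEG10 was no longer called (adjusted p = 0.0677).

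**Figure D5:**
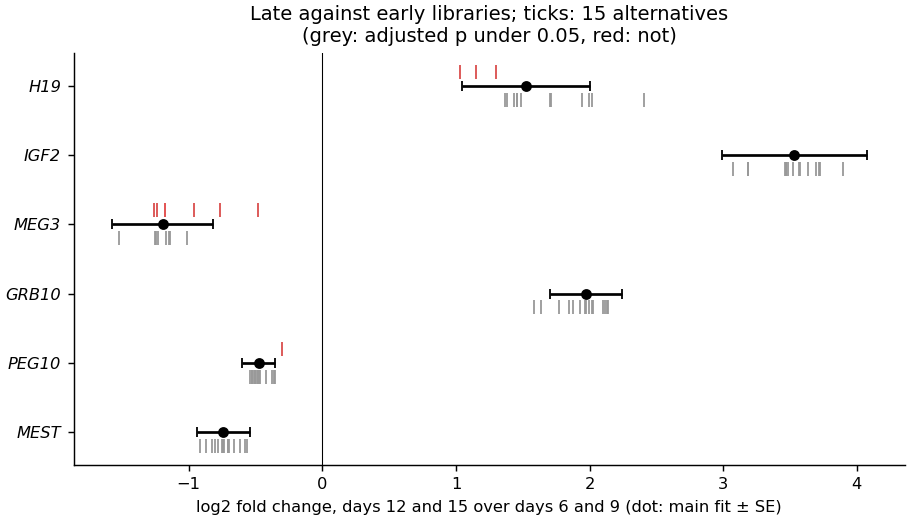
Log2 fold change of the 6 tested members, days 12 and 15 over days 6 and 9 (dot, main fit, with its SE), with 15 alternative fits of each as ticks (grey, adjusted p under 0.05; red, not). Signs are the same in all fits, and calls are lost in some fits of H19, MEG3 and PEG10.

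Whether the late-to-early change differed between the lines was tested as an interaction. No gene of 17478 was called (0.0% called; 141 genes had an unadjusted p under 0.05, and DESeq2 called 0), and none of the 6 tested members was. For H19 and MEG3 the SW620-FLAG arm of this test holds 15 UMIs or fewer per library, so nothing is read from it, and the interaction of GRB10 was 0.37 ± 0.57 on the log2 scale (SE; adjusted p = 1, edgeR). In SW620-FLAG the mean H19 level went from 0.0252 CPM early to 0.252 CPM late, and in SW620-TET2CD from 7.39 to 20.4 CPM.

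The gene lists below were chosen with earlier results of these data known, so their counts are descriptions and no independent evidence. Other imprinted genes gave 9 higher, 0 lower and 10 not called of 19 tested (32 listed, 31 in the tables). Over all genes 57.7% were called and 29.4% were higher. The median log2 fold change of the list, late over early, was 0.54, against 0.04 over all genes. ZDBF2, a paternally expressed zinc finger gene, was 3.5 and 6.07 CPM early and 17.0 and 15.4 CPM late in SW620-FLAG, and rose by 1.89 ± 0.26 (SE; adjusted p = 1.82e-04, edgeR). KCNQ1OT1, the paternally expressed antisense RNA of the neighbouring imprinted domain on chromosome 11, rose by 1.63 ± 0.22 (adjusted p = 1.69e-04) and reached 1631 CPM on day 15 in SW620-TET2CD. CDKN1C, a maternally expressed inhibitor of cyclin-dependent kinases in the same domain, rose by 1.61 ± 0.13 (adjusted p = 1.34e-05). Between the lines the list had a median log2 fold change of 0.07 (edgeR, description).

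The IGF pathway list gave 11 higher, 1 lower and 5 not called of 17 tested (21 listed), with a median of 0.94. Over all genes 29.4% were higher and 28.3% lower. The list includes IGF2 and GRB10, already given above as called members. IGFBP3, a binding protein that carries IGFs, was 0.813 and 1.25 CPM early and 15.2 and 23.1 CPM late in SW620-FLAG, and 0.485, 1.35, 9.51 and 18.5 CPM in SW620-TET2CD; it rose by 3.97 ± 0.34 (SE; adjusted p = 1.62e-05, edgeR). PAPPA, a protease that cleaves IGF-binding proteins, rose by 2.01 ± 0.58 (adjusted p = 0.0124) but stayed at or under 0.294 CPM. IGF2BP1, which binds IGF2 messenger RNA and H19, fell by 0.33 ± 0.11 (adjusted p = 0.024), although its day 15 level in SW620-TET2CD, 61.4 CPM, was the highest of its 8 libraries.

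Genes annotated within 500 kb of H19, IGF2 among them, gave 9 higher, 3 lower and 7 not called of 19 tested (44 in the tables), beside 57.7% called over all genes, with a median of 0.69. Apart from IGF2 the largest rises were those of IFITM10 (2.56 ± 0.36, SE; adjusted p = 2.1e-04, edgeR) and C11orf21 (2.00 ± 0.23; adjusted p = 6.49e-05). MRPL23, a mitochondrial ribosomal protein gene close to H19, went from 141.9 and 161.3 CPM early to 38.0 and 19.1 CPM late in SW620-FLAG and fell by 2.18 ± 0.33 (adjusted p = 3.15e-04). SYT8 fell by 1.26 ± 0.29 and TSSC4 fell by 0.85 ± 0.14. Between the lines the neighbours had a median log2 fold change of -0.17 (edgeR, description), while H19 itself stood at 6.49.

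As a description of likeness over the 8 single-cell libraries, genes whose log2(CPM + 1) ran most like H19 among the 8717 genes that averaged 8 CPM or more included CASC15 (Pearson r = 0.98) and DAG1 (0.97). CASC15, a long non-coding RNA, averaged 3.82 CPM in SW620-FLAG and 56.7 CPM in SW620-TET2CD, and DAG1, dystroglycan, 22.4 and 29.4 CPM. PEG10 ran most like SPHK2, HIST1H1E and SFMBT1 (r = 0.95, 0.95 and 0.94), and MEST most like HDHD5, MEAF6 and PYURF (r = 0.99 each). The libraries of a day share their stage of culture and those of a line share the vector, so such r values are high for many genes.

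Over cells, the mean over the 4 SW620-TET2CD libraries of the r of H19 was highest for TET2 (0.23), followed by TRPM4 (0.22), APOBEC3G (0.21), RAB34 (0.19) and ST3GAL4 (0.18), among 11837 genes seen in at least 2% of kept cells. IGF2, seen in 0.833% of cells and so outside that group, had 0.11, and PEG10, MEST, GRB10 and MEG3 had values between -0.02 and 0.001. These are weak correlations in sparse counts that share cell depth, and are given as values only.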

How the data were processed

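Single-cell and bulk RNA-seq libraries of SW480, SW620, SW620-FLAG and SW620-TET2CD cells were compared, with 1 library per condition. The authors deposited whole-number UMI counts per gene and barcode, made per the labels with Cell Ranger 4.0 on GRCh38. For bulk RNA they deposited expected counts (estimated counts) and TPM per gene from RSEM with Bowtie. The submitters' processing notes name mm10 as the build of the bulk tables, although their identifiers are human Ensembl genes. No source used here gives the annotation release of the bulk tables. Strand is not known to have been used for bulk counting, so genes with an antisense partner, such as PEG10, MEST and IGF2, cannot be separated from it.

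The 9 members and the gene lists were chosen with earlier results of these data known. Cells were kept at 200 to 4500 genes, at 1000 to 20000 UMIs and with no more than 10% of UMIs mitochondrial, and counts were summed per library. No doublet caller was run; leaving out the top 8% of kept cells by UMIs was an alternative. Days stood in for replicates. Summed counts and rounded expected counts were tested with edgeR 4.0.16 (quasi-likelihood, TMM factors, filter on low counts, R 4.3.3), with Benjamini-Hochberg adjusted p under 0.05 as the threshold. DESeq2 1.42.0 was an alternative, and the fits were checked on simulated counts. Other alternatives were upper-quartile factors, no filter, other sets of cells, no line block, each library left out, a pseudocount of 0.1 in place of 1, and thinning to 2000 or 5000 UMIs by seeded draws without replacement. Depth was 48186195 to 74185723 UMIs per single-cell library, at which 3 UMIs equal 0.0404 to 0.0623 CPM. Intervals are at the 95% level (scipy 1.17.1).

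Named genes were the 9 members, the 3 genes with the highest Pearson r over the 8 libraries for H19 and for each member with a mean of at least 8 CPM, the 5 genes with the highest mean r with H19 over cells, and, per list, up to 3 called genes with the largest change in each direction that moved the same way in both lines. Of these, 1 gene is not reported here. Marker genes were fixed likewise. The sequences are those of RefSeq, and 5 of the 9 members had promoter windows.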

Additional observations from a re-analysis of the deposited data

Results flagged for a closer look

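Between cells inside and outside colonies, MEST and GRB10 moved in opposite directions in the 2 lines on the TPM scale, with 1 library per line and location and no test of the difference. The log2 ratio of TPM + 1, outside over inside, was 0.070 for MEST in SW620-FLAG against -0.058 in SW620-TET2CD. For GRB10 the same ratio was 0.044 in SW620-FLAG against -0.022 in SW620-TET2CD. All 4 ratios were close to 0, and for GRB10 the direction depends on the scaling: in CPM of estimated counts it was higher outside in both lines, 26.1 against 23.3 in SW620-FLAG and 63.5 against 60.2 in SW620-TET2CD.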

How the results depend on the processing

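The mean difference of H19 between the lines, 3.40 on the log2(CPM + 1) scale, was 5.70 with a pseudocount of 0.1 and stayed within 1 SD over days in the other alternatives, with 2.97 to 3.80 when 1 day was left out. The difference between the TET2 classes stayed within 1 SD (3.81 at equal depth). Late against early, 4 to 6 of the 6 members tested (7 without the filter) were called in all alternatives, and no member changed sign. Over all genes 57.7% were called in the main fit. The 6 members called there include H19 and MEG3, whose calls are no independent evidence. The interaction test called 15 genes, no member among them, without the filter on low counts. Its log2 values turned sign for GRB10 (-0.008) and MEG3 (-1.09) when every barcode was counted, and with 1 library left out they ran from -2.26 to 0.092 for IGF2, from -0.44 to 2.89 for MEG3, from -0.35 to 0.40 for MEST and from -0.027 to 0.39 for PEG10. For outside against inside, DESeq2 called 22 genes, and without the filter 472 of 31544 genes (1.5%) and 2 of 7 members, H19 and IGF2, were called. With 1 library left out, which here also dropped the line block, the log2 values ran from -6.23 to 10.35 for H19, from -0.96 to 4.94 for IGF2, from -0.67 to 0.93 for GRB10 and from -0.16 to 0.32 for PEG10. The cause of these moves was not tested. MEG3 rests on at most 58 UMIs per library, and arms of 1 library give no spread within a condition.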
